A study of Mus musculus with 16 samples.

Results

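The cells described here are kidney epithelial cells that carried transcripts of Slc7a13 and Slc22a30, 2 transporters used as markers of the last stretch (S3) of the mouse proximal tubule. They were chosen by a rule on UMI counts (unique molecular identifiers, each counting 1 captured RNA molecule). A cell was kept when Slc22a30 and Slc7a13 together had at least 5 UMIs, Slc5a2, the glucose cotransporter of the early tubule, had 0, and Slc7a12 and Serpina1f together had at most 1. Of 24975 cells that passed the filters, 791 met the rule (3.17%), and 785 of these (99.2%) came from a single library, the second wild type one. They are called gated cells below, because the markers bear the S3 label only in part. Slc7a13 and Slc22a30 were abundant because the rule chose on them. Of the markers it did not use, Atp11a was abundant and Cyp7b1 was nearly absent.

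Kidney tissue of C57BL/6 mice was compared between wild type animals and Gulo-/- animals, which lack the last enzyme of vitamin C synthesis, with 2 single-cell RNA libraries per genotype. The labels give neither age, sex nor vitamin C supply, and they do not say how many animals made up a library, so the libraries of a genotype may not be independent animals. The chopped and mixed kidneys were also divided for bisulfite and m6A sequencing. Whole-kidney loss of Gulo is not specific to any cell type. Xist and Ddx3y counts marked the first wild type and the second Gulo-/- library as female, and the others as male.

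The proximal tubule takes back most of the glucose, amino acids, phosphate and bicarbonate that the glomerulus filters. Its first segments carry high-capacity uptake and its last segment, which descends into the outer medulla, carries high-affinity transporters that recover what remains, together with enzymes of drug and fatty acid metabolism. In mice the late segments differ between the sexes, with several transporters and cytochrome P450 enzymes under androgen control.

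Among filtered cells, 1595 came from wild type replicate 1, 7541 from wild type replicate 2, 1877 from Gulo-/- replicate 1 and 13962 from Gulo-/- replicate 2, with median depths between 3027 and 4978 UMIs per cell. The wild type libraries shared 986 barcodes, and the other library pairs shared between 9 and 282. The 817 filtered cells of wild type replicate 2 with such a barcode were left out under the rule. They held 2098 Xist and 7 Ddx3y UMIs, whereas the 7541 cells kept held 5 and 1793. Only 4 of them (0.490%) met the gate, so keeping them would have given 789 gated cells in that library. Summed markers of other nephron segments also differed between libraries. Thick ascending limb markers came to 361 CPM (UMIs per 1000000 UMIs of the cells summed) and 747 CPM in the wild type libraries and to 1566 and 6979 CPM in the Gulo-/- libraries, over all filtered cells.

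Gated cells made up 10.4% of the filtered cells of wild type replicate 2, with an exact binomial 95% interval of 9.73 to 11.1%. In wild type replicate 1 there were 0 of 1595, a count that allows a share of up to 0.188%. Gulo-/- replicates 1 and 2 each held 3 gated cells, which is 0.160% (0.0330 to 0.466%) and 0.0215% (0.00443 to 0.0628%). The genotypes overlapped, because the lowest share was in a wild type library as well as the highest. The wild type mean was 5.20% ± 7.36 (SD, n = 2) and the Gulo-/- mean 0.0907% ± 0.0978 (SD, n = 2), and a two-sided exact permutation test over the 4 libraries gave p = 1, where 0.33 is the smallest p that 2 libraries against 2 can give. Without wild type replicate 2 the difference turned from -5.11 to 0.0907 percentage points. All intervals cover counting error only.

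Both male libraries had higher shares than both female ones, though the intervals of Gulo-/- replicate 1 and the female libraries overlapped, and the part of sex in the shares was not tested. The lists used below of genes higher in male and in female mouse kidney each hold 1 gene of the rule. Median depth per cell was 3755 and 4978 UMIs for the wild type pair and 3027 and 4786.5 for the Gulo-/- pair, each in replicate order, and its part was not tested either. Gated cells were also set against cells with at least 3 UMIs of Slc34a1, Lrp2, Slc13a3, Slc5a2 and the gate genes together. Every gated cell meets that minimum through the rule. Gated cells were 0%, 13.3%, 0.469% and 0.0863% of them in wild type replicates 1 and 2 and Gulo-/- replicates 1 and 2. With a gate set at 0.1% of each cell's own UMIs instead of 5 UMIs, the shares were 0%, 7.15%, 0.266% and 0.0645%.

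**Figure D1:**
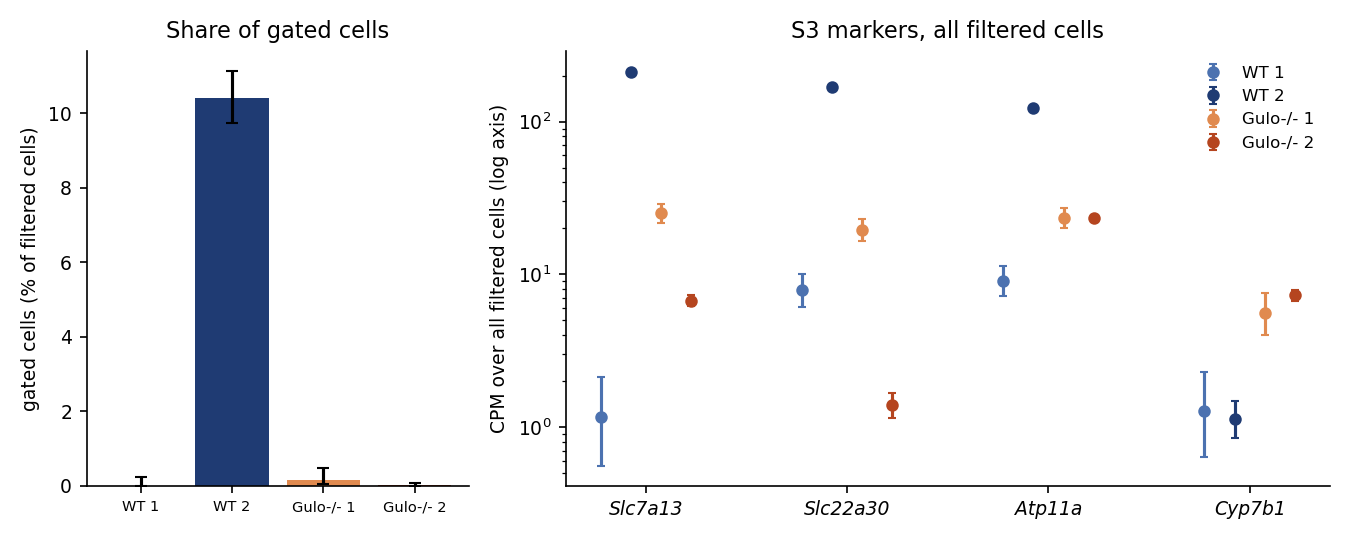
Left, gated cells as a percentage of the filtered cells of each library, with exact binomial 95% intervals. Right, CPM of the 4 markers summed over all filtered cells of each library on a log axis, with Poisson 95% intervals. Wild type replicate 2 is highest for Slc7a13, Slc22a30 and Atp11a, and both Gulo-/- libraries are above it for Cyp7b1.

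The same library stood apart when no gate was applied. Slc7a13, a transporter of acidic amino acids and cystine, was at 1.16 and 212 CPM over all filtered cells of wild type replicates 1 and 2, and at 25.03 and 6.72 CPM in Gulo-/- replicates 1 and 2. Slc22a30, a member of the organic ion transporter family, was at 7.90, 169, 19.6 and 1.40 CPM in the same order. Atp11a, a flippase that moves phospholipids across the plasma membrane, was at 9.06, 123, 23.3 and 23.4 CPM. For all 3 genes the wild type libraries lay on either side of the Gulo-/- ones or overlapped them. Cyp7b1, an oxysterol hydroxylase, was at 1.28, 1.14, 5.56 and 7.29 CPM, with both Gulo-/- libraries above both wild type ones. In such sums over all cells, fewer cells of a type and less RNA per cell cannot be told apart.

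The gated cells of wild type replicate 2 were deep. Their median was 9554 UMIs and 2402 genes per cell, against 4978 UMIs over all cells of the library, as a minimum of 5 UMIs of 2 genes favours deep cells. They ran from 1973 to 36963 UMIs, with quartiles at 6707 and 12633. Mitochondrial transcripts took a median of 20.8% of their UMIs, and 240 cells were over 25%. At the edge of the rule, 163 cells had 4 UMIs of the gate genes at a median depth of 6549 UMIs and were left out, and 128 had 5 UMIs at 7120 and were kept. No doublet caller was applied. A further 360 cells met the minimum but had a UMI of Slc5a2, and 3 exceeded the limit on Slc7a12 and Serpina1f.

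Both gate genes were usually present in the same cell. Of the 785 cells, 675 (86.0%) had UMIs of both, 78 only of Slc7a13 and 32 only of Slc22a30. Slc7a13 ran from 0 to 36 UMIs per cell with a median of 6, and Slc22a30 from 0 to 29 with a median of 4. These counts chose the cells and are a description.

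The remaining 6 gated cells did not form a matching group. In Gulo-/- replicate 1 the Slc7a13 and Slc22a30 counts of the 3 cells were 1 and 4, 0 and 5, and 6 and 0. In Gulo-/- replicate 2 the 3 cells had 6, 7 and 5 UMIs of Slc7a13, none of Slc22a30 and 1 UMI of Serpina1f each, so they sat at the limit of the rule. The genotypes were therefore not compared within gated cells, since a fit required at least 5 gated cells in each of 3 or more libraries.

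Markers that the rule did not use gave a mixed identity. Atp11a was at 333 CPM in the gated cells of wild type replicate 2, against 32.9 CPM in the 1638 Slc5a2-positive cells of that library, which had at least 1 UMI of Slc5a2 and at most 1 of the gate genes. That is a ratio of 10.1 (95% counting interval 9.05 to 11.4). Cyp7b1 had 4 UMIs in all 785 cells, or 0.506 CPM, and 8 UMIs in the Slc5a2-positive cells. Among other late tubule genes, named here after their values were seen, Slc22a19 had 17 UMIs against 2 in the Slc5a2-positive cells, and Slc5a1, the second glucose cotransporter, was at 19.1 against 4.46 CPM. Genes usually placed in the middle (S2) segment were high, with Slc22a6, which brings organic anions into the cell, at 703 CPM and Cyp2e1, an ethanol-inducible P450 enzyme, at 838 CPM, against 130 and 146 CPM in the Slc5a2-positive cells. Slc34a1, the phosphate cotransporter of the proximal tubule, was at 2243 CPM against 1403.

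Markers of other cell types were present, and each summed list was lower in the gated cells than in the rest of the library. Only 45 of the 785 gated cells had fewer than 3 UMIs of these non-proximal markers together. Erythroid genes summed to 561 CPM against 5363, macrophage genes to 198 against 1192, thick ascending limb genes to 183 against 859 and principal cell genes to 66.8 against 493. Col1a1, Col3a1 and Pdgfrb of stromal cells and Nphs1 of podocytes were at 0 UMIs. Gate gene UMIs were also found in cells of another type. Of 130 C1q-positive cells of the library, a macrophage population that should lack them, 20% had a UMI of Slc7a13, 15.4% of Slc22a30 and 16.2% of Atp11a, at a median depth of 4746 UMIs. Whether these came from free RNA or mixed droplets was not tested. In Slc5a2-positive cells, at 5454 UMIs, Atp11a was seen in 17.4%, close to the share in C1q-positive cells. Their shares for the gate genes are not compared, because their definition allows at most 1 such UMI. After thinning each cell to 2000 UMIs, which left out 1 gated, 25 Slc5a2-positive and 3 C1q-positive cells, Atp11a was seen in 47.1% of gated cells, 6.51% of Slc5a2-positive cells and 6.30% of C1q-positive cells. Without thinning it was seen in 83.1% of gated cells. Unthinned levels of Kap, Slc22a6, Slc5a8 and Slc6a18 were 7532, 132, 13.2 and 27.8 CPM in C1q-positive cells. Slc5a2-positive cells had 5559, 130, 12.8 and 18.1 CPM, so ratios to them for these genes rest on levels that C1q-positive cells also reached. Slc34a1 and Gatm were higher in Slc5a2-positive cells, at 1403 against 574 CPM and 2349 against 734 CPM. Gatm in gated cells, at 249 CPM, was below the C1q-positive level.

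All comparisons of gated cells with other cells below stay within wild type replicate 2 and have no replicate check, so they are given as ratios with counting intervals and without a p-value. Against the Slc5a2-positive cells, 6661 genes reached 10 CPM in either population, leaving out the 5 genes of the rule. Of these, 553 (8.30%) were at least 2-fold higher in gated cells and 344 (5.16%) at least 2-fold lower, and the median ratio was 1.02. Against all other filtered cells of the library, 311 of 6717 genes (4.63%) were at least 2-fold higher and 382 (5.69%) at least 2-fold lower. The gate chose the cells on transcripts of the same libraries, so these counts describe the population.

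The 15 genes with the highest ratio to the other cells, among those at 50 CPM or more, were of several kinds and included 2 without a gene name. Slc5a8, which takes up lactate and other monocarboxylates, was at 180 CPM against 40.0 in the other cells, a ratio of 4.51 (4.20 to 4.85). Slco1a1, an organic anion transporter, was at 289 against 67.3 CPM, a ratio of 4.30 (4.06 to 4.55). Slc6a18, a brush border carrier of neutral amino acids, was at 144 against 36.3 CPM. Genes of fatty acid handling among them were Lpl, the lipase that frees fatty acids from lipoproteins, at 949 against 251 CPM, Cd36, a fatty acid uptake protein, at 311 against 86.1 CPM, and Slc27a2, which activates long fatty acids, at 1685 against 517 CPM. The P450 genes Cyp2d9, Cyp2a5 and Cyp2a4, the secreted glycoprotein gene Azgp1, the membrane protein gene Tmigd1 and the protease gene Napsa had ratios between 3.24 and 3.94. Cyp2a4 and Cyp2a5 are near-identical copies, so their separate levels are uncertain.

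Late tubule genes were higher than in Slc5a2-positive cells. Of 13 genes on the list, 11 reached 10 CPM and all 11 were at least 2-fold higher, where 8.30% of all genes were, with a median ratio of 3.87 against 1.02 over all genes. A gene under 10 CPM in either population could be measured only by being high in the other, as Slc5a1 and Slc22a7 here through gated cells. So this count and the list counts that follow describe the lists and support nothing. The highest were Slc5a8 at 180 against 12.8 CPM (14.1-fold), Slc22a7, an organic anion carrier, at 24.4 against 1.80 CPM (13.5-fold) and Napsa at 677 against 83.0 CPM (8.16-fold). The lowest was Aadat, an enzyme of lysine and tryptophan breakdown, at 122 against 49.4 CPM (2.46-fold). Acy3, an aminoacylase that processes mercapturates, was at 2306 against 851 CPM.

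The early tubule list, which also holds genes usually placed in the middle (S2) segment, split into separate sets. Of 13 measured genes, 6 were at least 2-fold lower and 3 at least 2-fold higher, against 5.16% and 8.30% of all genes. The gene with the lowest ratio on the list, 0.0761, was measured only through its level in Slc5a2-positive cells. Those lower were Slc34a3, Slc5a12, Gatm, Slc7a8, Slc6a19 and Slc7a7. Gatm, which makes the precursor of creatine, was at 249 CPM against 2349, a ratio of 0.106 (0.101 to 0.111), and Slc5a12, a lactate cotransporter, was at 13.4 against 137 CPM. Those higher were the S2 genes Slc22a6, Cyp2e1 and Slc13a3, a dicarboxylate cotransporter at 250 against 59.1 CPM. Among genes at 50 CPM or more in either population, Car3, a carbonic anhydrase, had the lowest ratio at 0.0475 (0.0363 to 0.0612), with 7.84 against 165 CPM.

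**Figure D2:**
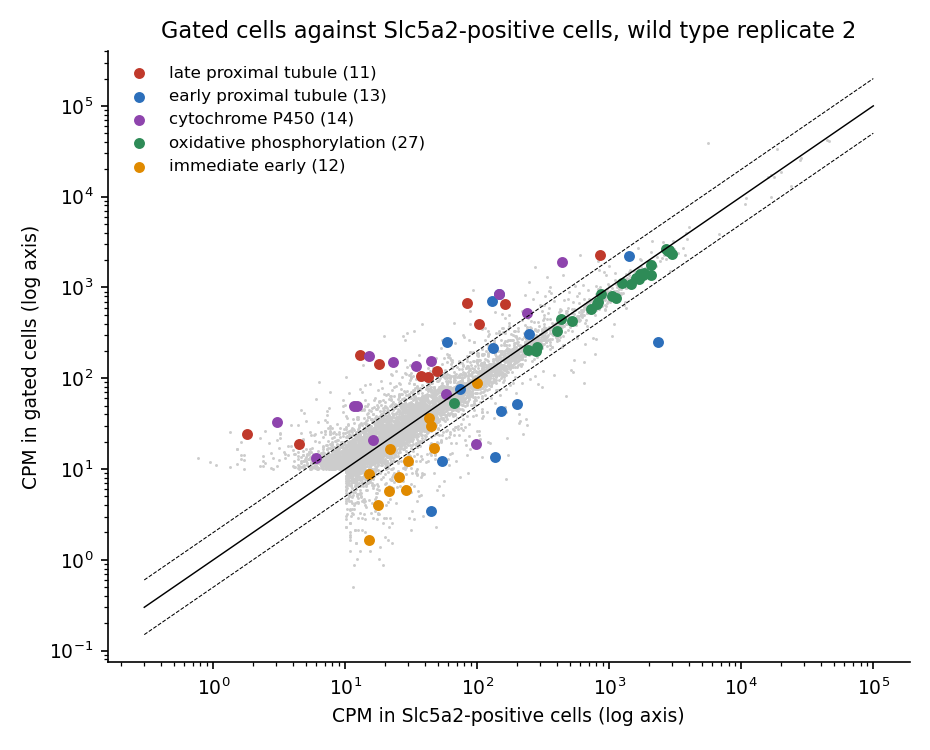
Each point is a gene at 10 CPM or more in either population, by its CPM in Slc5a2-positive cells and in gated cells of wild type replicate 2, both on log axes, with lines at equal level and at 2-fold higher and lower. The 11 late tubule genes and most P450 genes lie above the upper line, the 27 genes of oxidative phosphorylation lie between the lines, and 7 of 12 immediate early genes lie below.

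Amino acid transporters also fell on both sides, with 6 of 14 measured genes at least 2-fold higher and 5 at least 2-fold lower, against 8.30% and 5.16% of all genes. Slc6a18 was at 144 against 18.1 CPM and Slc38a3, a glutamine transporter, at 14.2 against 1.61 CPM, an 8.78-fold ratio. Slc38a3 was measured only through its level in gated cells. Slc3a1, the partner chain of Slc7a13 in cystine transport, was 2.80-fold higher and Slc1a1, the glutamate transporter of the late tubule, 2.47-fold higher. Slc6a19, the main neutral amino acid carrier of the early tubule, was at 52.4 against 201 CPM. Of 9 measured genes of glucose and fructose handling, 2 were at least 2-fold higher and 0 lower.

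Of 24 listed genes of organic ion and drug transport 16 were measured, of which 12 were at least 2-fold higher and 0 lower, against 8.30% and 5.16% of all genes. Of 16 listed cytochrome P450 genes 14 were measured, of which 11 were higher and 1 lower. Slc22a4, Slc22a7, Cyp4a12b and Cyp4a14 were measured only through their level in gated cells. Slco1a1 was 14.8-fold higher than in Slc5a2-positive cells, Slc22a2, an organic cation uptake carrier, 4.88-fold and Slc22a12, the urate transporter, 3.57-fold. Cyp2a4 was 11.8-fold higher, Cyp4a10, a fatty acid hydroxylase, 6.66-fold and Cyp4b1 4.35-fold, while Cyp2d26 was at 0.196 of the Slc5a2-positive level. All 8 measured genes of 10 on a list of transcripts known to be higher in male mouse kidney were at least 2-fold higher. Kap, an androgen-regulated kidney protein, was among them, at 39490 against 5559 CPM, and C1q-positive cells had it at 7532 CPM. This list and a female list each hold 1 gene of the rule, which was left out of these counts. The cells compared came from a male library, and the part of the rule and of sex in these values was not tested. Of the female list, Cyp4a14 was at 33.0 against 3.04 CPM and Slc22a7 at 24.4 against 1.80 CPM, and both were measured only through their level in gated cells.

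The levels of Slco1a1 and Kap, chosen here from that list after their values were seen, differed widely between the male libraries. Over all filtered cells, Slco1a1 had 4955 UMIs in wild type replicate 2 and 1 UMI in Gulo-/- replicate 1, the other male library, which is 104 and 0.132 CPM. It had 0 and 6 UMIs in the female libraries, and levels resting on 0, 1 and 6 UMIs give no order among those 3. Kap was at 17870 CPM in wild type replicate 2 and 2009 CPM in Gulo-/- replicate 1, with 1874 and 161 CPM in the female wild type replicate 1 and Gulo-/- replicate 2. Proximal tubule S1 markers summed to 3009 CPM in wild type replicate 2 and 1480 CPM in Gulo-/- replicate 1, and the part of tubule content in these levels was not tested.

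Oxidative phosphorylation and cytosolic ribosomal genes were mostly lower, but within 2-fold. None of 27 oxidative phosphorylation genes and none of 25 cytosolic ribosomal genes passed 2-fold in either direction. Their median ratios were 0.803 and 0.818, against 1.02 over all genes, and 1 and 0 of them had a ratio above 1. Peroxisome and fatty acid oxidation genes had 8 of 25 at least 2-fold higher than in Slc5a2-positive cells, against 8.30% of all genes, and 4 of 25 at least 2-fold higher than in the other cells of the library, against 4.63%. They included Acsm3 (9.43-fold), a medium-chain acyl-CoA synthetase. Megalin (Lrp2), the endocytic receptor, was 2.12-fold higher, the only one of 10 measured endocytosis genes past 2-fold. Among glutathione and antioxidant genes 5 of 27 were at least 2-fold higher, including Gclc, the rate-limiting enzyme of glutathione synthesis (3.25-fold), and Ggt1, which degrades extracellular glutathione (4.05-fold), and 2 were lower, Gsta2 and Gsta4.

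Of 12 measured immediate early genes, 7 were at least 2-fold lower, where 5.16% of all genes were, and none was higher. Fos was at 5.82 CPM against 29.1 CPM and Egr1 at 1.64 against 15 CPM. Both were measured only through their level in Slc5a2-positive cells, so the count describes the list. Of 8 measured tubular injury genes, 4 were at least 2-fold lower and 3 had a ratio above 1. Those lower included Spp1, the secreted phosphoprotein osteopontin, at 63.6 against 472 CPM. Among transcription factors, Hnf4a was at 178 against 172 CPM, Maf at 231 against 449 CPM and Hnf4g at 21.0 against 4.75 CPM. Of 13 measured factors, 2 were at least 2-fold higher, Hnf4g among them, and 1 at least 2-fold lower, Cebpa at 5.82 against 18.1 CPM. Hnf4g was measured only through its level in gated cells, and Cebpa only through that in Slc5a2-positive cells. Heat shock and unfolded protein genes had 1 of 16 higher and 1 lower, and cell death genes 2 of 11 higher and 1 lower. Genes of vitamin C handling had 1 of 5 measured members higher and 1 lower: Slc23a1, the epithelial ascorbate transporter, was at 34.8 against 16.7 CPM and Gsto1, a dehydroascorbate reductase, at 29.1 against 80.7 CPM. Of 25 listed dioxygenases that use ascorbate 13 were measured, of which 4 were at least 2-fold higher and 0 lower, against 8.30% and 5.16% of all genes: Tet2, which oxidises 5-methylcytosine, Fto, which removes methyl groups from RNA, and the prolyl hydroxylase subunits P4ha1 and P4hb, at 2.09-fold to 2.75-fold. Tet2 and P4ha1 were measured only through their level in gated cells. No gene of the alpha-1-antitrypsin list reached the minimum level.

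The authors' deposited marker table placed the gate genes in different clusters. It listed Slc22a30 for the cluster PT2, where 50.9% of cells had it, and Slc7a13 for PT3 and for a cluster also marked by Serpina1f and Slc7a12, at 53.2% and 66.7% of cells. It listed Cyp7b1 for the cluster CD-PC at 31.2% of cells. Genes of all 3 clusters were often above Slc5a2-positive cells in the gated cells. Of measured PT3 genes 54 of 116 were at least 2-fold higher, of PT2 genes 54 of 156 and of genes of the Serpina1f cluster 44 of 68, against 8.30% of all genes, while 0 of 66 genes of PT-BB were. Those clusters were drawn by the authors from these same cells, so the counts are not independent of the gate.

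The gated cells varied widely in a nuclear transcript. Malat1, a long noncoding RNA that stays in the nucleus, took between 0 and 22.3% of the UMIs of a cell, with a median of 2.58%. The values fell into separate ranges, with 302 of 785 cells (38.5%) under 0.5% and only 11 between 0.2 and 0.5%. This was not particular to gated cells. Of the 1638 Slc5a2-positive cells of wild type replicate 2, 1179 (71.98%) were under 0.5% and 50 between 0.2 and 0.5%. Of all 7541 filtered cells of that library, 5141 (68.17%) were under 0.5% and 242 in between. Outside the gate, the share under 0.5% was 81.63% in wild type replicate 1 and 44.08% and 31.93% in Gulo-/- replicates 1 and 2. In the gated cells the median rose with the part that Slc22a30 took of the gate UMIs. It was 0.0587% in 78 cells without Slc22a30, 0.0716% in 207 cells with a share up to 25%, 3.13% in 271 cells up to 50%, 5.23% in 134 cells up to 75% and 7.48% in 95 cells above that. This division was chosen after the values were seen, and it describes cells of a single library. Gated and Slc5a2-positive cells thus differed in the share under 0.5%, and its part in the ratios between them was not tested. Slc34a1 was at 1184 CPM in Slc5a2-positive cells under 0.5% and 1901 CPM in the rest, and at 2077 and 2328 CPM in gated cells. Kap went the other way, at 6401 and 3653 CPM and at 50410 and 33900 CPM.

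**Figure D3:**
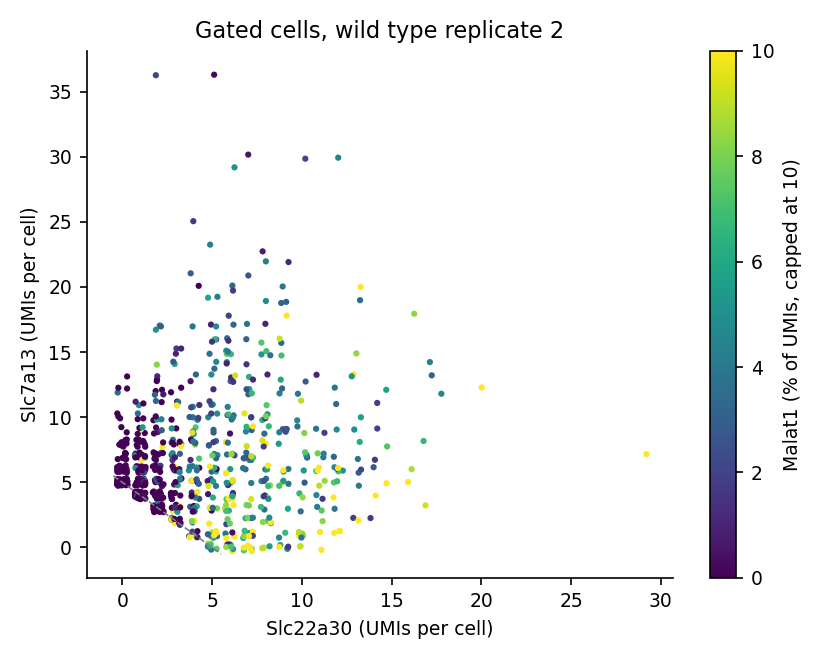
Slc22a30 and Slc7a13 UMIs in each of the 785 gated cells of wild type replicate 2, jittered around whole numbers and coloured by the percentage of UMIs from Malat1. The dashed line is the minimum of 5 UMIs. Cells along the left edge, with little Slc22a30, are dark, meaning low Malat1.

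**Figure D4:**
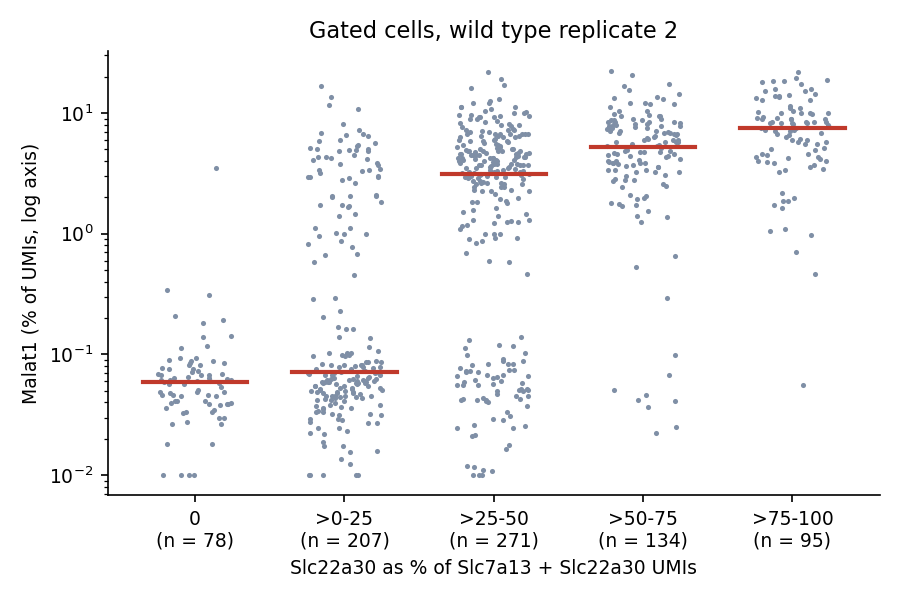
Malat1 as a percentage of UMIs in each gated cell of wild type replicate 2 on a log axis, by the share of Slc22a30 in the gate UMIs, with medians as red lines. The 10 cells without Malat1 and any below 0.01 are drawn at 0.01. Medians go from 0.0587% to 7.48%, and few cells lie between the upper and lower bands.

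Cells at opposite ends of the gate were set side by side. Between 166 cells with at least 5 UMIs of Slc7a13 and at most 1 of Slc22a30, and 67 cells with the reverse, median depths were 7588.5 and 7578 UMIs. Of 2400 genes at 50 CPM or more in either, 41 (1.71%) were at least 2-fold higher in the Slc7a13-led cells and 232 (9.67%) at least 2-fold lower. Malat1 was at 5513 CPM in Slc7a13-led and 74750 CPM in Slc22a30-led cells, a ratio of 0.0737 (0.0720 to 0.0756). Neat1, another nuclear noncoding RNA, was at 119 and 910 CPM and Kcnq1ot1, a nuclear antisense RNA, at 4.26 and 96.2 CPM. The genes higher in Slc7a13-led cells were led by Azgp1 (8.30-fold, 4.12 to 19.5), Cyp2a4 (5.12-fold, 3.44 to 7.95) and Akr1c14 (4.798-fold, 2.10 to 13.5), a steroid dehydrogenase, and 2 of 9 measured late tubule genes were at least 2-fold higher. Of 11 measured genes on the early tubule list, 5 were at least 2-fold lower in Slc7a13-led cells, against 9.67% of all genes. The median log2 ratio of that list was -0.92 against 0.09 over all genes. Atp11a, at 207 and 263 CPM, had a ratio of 0.787 (0.641 to 0.968).

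The gated cells were also divided by Malat1 alone. In gated cells with at least 0.5% Malat1, Slc22a30 was at 617 CPM against 153 CPM in cells below that, a ratio of 4.04 (3.65 to 4.49), while Slc7a13 was at 677 against 654 CPM, a ratio of 1.04 (0.978 to 1.10). The gate requires a minimum of the sum of both genes, so these ratios are set in part by the rule and are a description. Atp11a was at 412 against 180 CPM, a ratio of 2.295 (2.08 to 2.54). Depth and mitochondrial share moved too, with medians of 10523 UMIs and 19.6% in the first set and 8050.5 UMIs and 23.7% in the second, and their part was not tested. Outside the gate the relation of Slc22a30 to Malat1 differed between libraries. Over all other filtered cells the ratio was 10.3 (5.87 to 19.1) and 4.98 (4.65 to 5.32) in wild type replicates 1 and 2, 3.02 (1.93 to 4.91) in Gulo-/- replicate 1 and 0.752 (0.485 to 1.20) in Gulo-/- replicate 2. Thick ascending limb markers were highest in that last library, as given above, and their part in its ratio was not tested. In Slc5a2-positive cells alone the ratio was 2.08 (1.66 to 2.62) in wild type replicate 2, 7.99 (2.93 to 25.1) in wild type replicate 1, 8.74 (1.29 to 374) in Gulo-/- replicate 1 and 2.50 (0.855 to 9.96) in Gulo-/- replicate 2, where the interval includes 1. The last 3 values rest on 21, 13 and 27 UMIs. For Slc7a13 the ratio over all other filtered cells was 1.55 (1.47 to 1.64) in wild type replicate 2, 0.645 (0.477 to 0.872) in Gulo-/- replicate 1 and 0.214 (0.179 to 0.255) in Gulo-/- replicate 2. In wild type replicate 1 all 10 Slc7a13 UMIs were in cells with less Malat1.

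A small group in the Gulo-/- libraries met the gate but for its last term. The limit on Slc7a12 and Serpina1f removed 9 cells of Gulo-/- replicate 1 and 23 of Gulo-/- replicate 2. In them Slc7a13 was at 1720 and 1445 CPM, above the 669 CPM of the gated cells of wild type replicate 2, and Slc22a30 was at 34.4 and 9.03 CPM against 460. Atp11a was at 275 and 226 CPM against 333, Slc5a8 at 298 and 181 CPM against 180 and Slc6a18 at 550 and 650 CPM against 144. Napsa stood at 12960 and 12640 CPM against 677. Slc22a6 had 0 UMIs in both, which allows up to 34.4 and 27.1 CPM, against 703 CPM, and Slc34a1 was at 91.7 and 352 CPM against 2243. Prlr, the prolactin receptor, was at 550 and 578 CPM against 1.14. In the 3 such cells of wild type replicate 2, S2 markers summed to 1610 CPM, against 45.9 and 72.2 CPM here, on 82, 4 and 8 UMIs. The compared cells were also chosen differently, since those over the limit were picked by Slc7a12 and Serpina1f. The authors' deposited marker table lists Prlr and Slc6a18 for the Serpina1f cluster as well. Choice of cells, library and genotype differ at once and cannot be told apart, and no test was made.

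**Figure D5:**
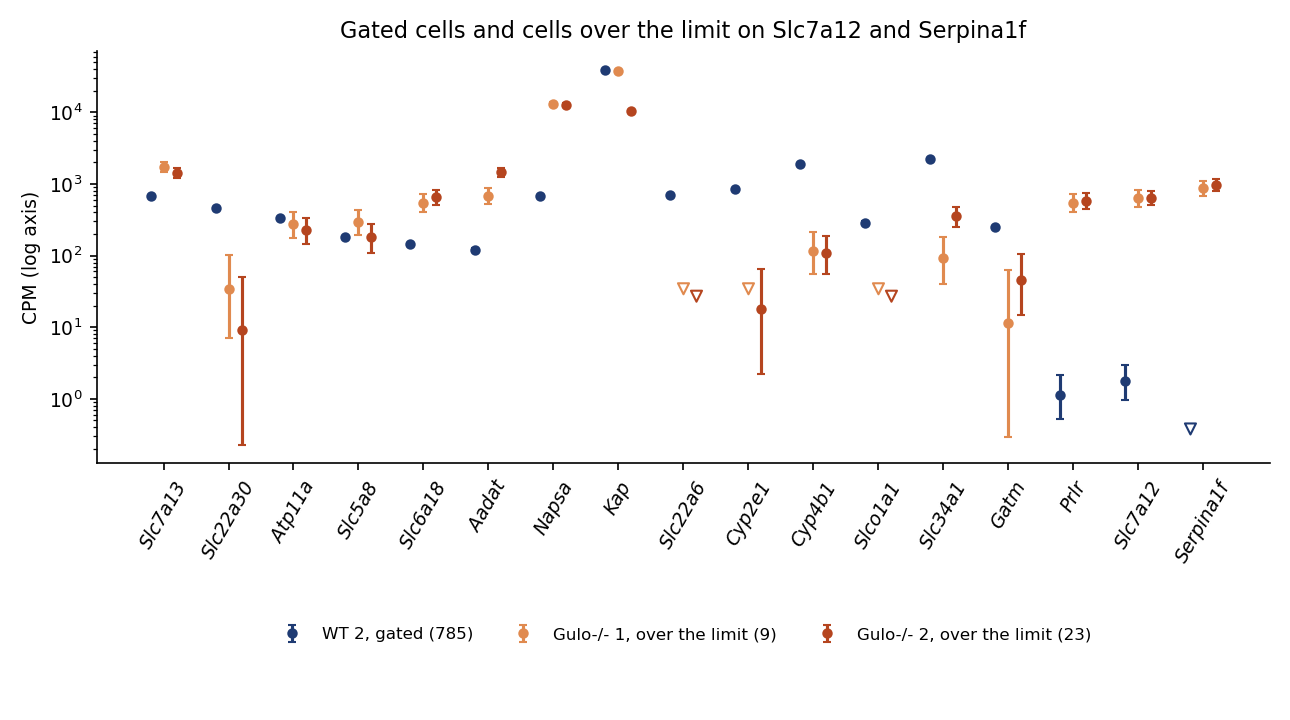
CPM with Poisson 95% intervals on a log axis for 17 genes in the 785 gated cells of wild type replicate 2 and in the 9 and 23 cells of the Gulo-/- libraries that exceeded the limit on Slc7a12 and Serpina1f. Open triangles mark genes with 0 UMIs, drawn at the level of 3 UMIs. Atp11a and Slc5a8 lie close together in the 3 populations, and Slc22a30, Slc22a6 and Slco1a1 are high only in the wild type cells plotted.

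As gated cells could not be compared between genotypes, late tubule genes were compared over all proximal tubule cells, chosen by at least 3 UMIs of Slc34a1, Lrp2, Slc13a3 and Slc5a2 together and summed per library. This comparison was added after the data were seen. With 2 libraries per genotype, edgeR's quasi-likelihood test called 0 of 12173 genes at an adjusted p under 0.05 (0%), with 2336 at an unadjusted p under 0.05, and DESeq2 called 630. None of the 4 markers and none of 13 late tubule genes was among the edgeR calls. Slc7a13 was at 1.11 and 240 CPM in the wild type libraries and 49.9 and 9.87 CPM in the Gulo-/- ones, a log2 change of -2.17 (SE 2.16, adjusted p = 0.604 in edgeR). Slc22a30 was at 10.5, 192, 43.5 and 5.90 CPM and Atp11a at 8.74, 137, 23.7 and 17.5 CPM, with log2 changes of -2.21 and -2.06 and adjusted p of 0.504 and 0.425 in edgeR. Wild type replicate 2 decided these directions: without it the log2 changes of the 3 genes were 4.37, 0.86 and 0.83.

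Cyp7b1 went the other way, at 0.159 and 0.901 CPM in the wild type and 0.913 and 3.46 CPM in the Gulo-/- libraries, a log2 change of 1.59 (SE 0.89, adjusted p = 0.366 in edgeR) on 1, 37, 3 and 61 UMIs. Without wild type replicate 2 it was 3.32.

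The share of late genes whose libraries did not overlap was near or under that of all genes. Both Gulo-/- libraries lay below both wild type ones for 2 of 13 late genes, where 14.8% of all genes did, and above for 1, where 41.0% did, so nothing is read from it about the late genes. Slc22a7 was at 6.2 and 9.89 CPM in the wild type and at 0 and 0.170 CPM in the Gulo-/- libraries, a log2 change of -6.19 (SE 0.68, adjusted p = 0.161 in edgeR and 4.49e-06 in DESeq2). Acy3 was at 290 and 1608 CPM and at 113 and 78.9 CPM, a log2 change of -3.52 (SE 0.90, adjusted p = 0.202 in edgeR and 7.20e-05 in DESeq2). DESeq2 thus called both genes, where it called 630 of 12173 genes in all, and edgeR called neither. Without wild type replicate 2 the log2 change of Acy3 was -1.99, without wild type replicate 1 -4.26 and without Gulo-/- replicate 1 -4.03. For Slc22a7 it was -10.17 without Gulo-/- replicate 2, a value that rests on a library with 0 UMIs. Slc3a1 was at 72.97 and 61.1 CPM and at 122 and 73.2 CPM, and its log2 change turned from 0.27 to -0.38 without Gulo-/- replicate 1. The same cells in each library also differed in the S3 gate genes as given above, and the part of tubule segment content in these values was not tested.

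Whole-kidney bisulfite sequencing bears on the markers only as a mixture of all cell types. The authors' deposited region table assigns 14 differentially methylated regions to the 4 markers, and it does not name which genotype is side 1. Side 1 was higher in 8 of the 14 and in 46.2% of all 86510 regions of the authors' deposited table. In that table the 2 regions of Slc7a13 (chr4:19818727-19842213) were lower on side 1, with methylation levels of 0.619 against 0.841 and 0.669 against 0.872, and lay 26.7 and 43.3 kb from its start. The 3 regions of Slc22a30 (chr19:8335371-8405111) were higher on side 1 in the authors' deposited table, with 0.935 against 0.685, 0.922 against 0.811 and 0.930 against 0.666. Of the 5 regions of Cyp7b1, 4 were higher on side 1 in the authors' deposited table. The 1 at its promoter was lower on side 1, with 0.402 against 0.632. No replicate error or coverage comes with these values.

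A region at the start of Atp11a (chr8:12757016-12868728) was the exception among that gene's 4. At chr8:12756900-12757017 in mm10 the authors' deposited table gives 22 CpGs and methylation levels of 0.251 on side 1 and 0.151 on side 2, while its other 3 Atp11a regions, 5.43 to 11.9 kb downstream, were lower on side 1, for example 0.766 against 0.970. The RefSeq promoter window of Atp11a on GRCm38.p6 (chr8:12756766-12757065, + strand) is shown because the region lies wholly inside it, and the capitals mark the region.
Atp11a: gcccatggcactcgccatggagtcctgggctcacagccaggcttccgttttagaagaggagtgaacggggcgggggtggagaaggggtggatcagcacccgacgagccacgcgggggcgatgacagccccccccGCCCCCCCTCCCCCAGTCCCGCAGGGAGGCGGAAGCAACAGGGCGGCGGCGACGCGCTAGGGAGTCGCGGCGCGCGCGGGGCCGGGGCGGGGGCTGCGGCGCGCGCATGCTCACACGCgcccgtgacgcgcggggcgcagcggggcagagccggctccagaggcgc
The window holds 39 CpGs (CG on either strand, which reads the same), as many as or more than 96.1% of 32851 RefSeq promoter windows of that length, and 20 of them lie in the capitals, against the 22 that the authors' deposited table counts there. The window of Slc22a30 (chr19:8405056-8405355, - strand) holds none, as do 5.43% of windows. Within gated cells of wild type replicate 2, Atp11a was at 333 CPM and Slc22a30 at 460 CPM, and methylation was not measured in these cells.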

How the data were processed

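The deposited single-cell matrices hold raw UMI counts, used as the authors deposited them. The sources used here name no counting tool. Per the submitters' processing notes, the build was mm10 and tools included Seurat 2.3.4 and MACS2 2.1.2. The authors' deposited region table gives methylation levels as a fraction, other values (their difference and the distance to the start) and counts of CpGs. The authors' deposited marker table gives a natural log ratio, detection shares as a fraction and a p-value over cells, of which only the shares are printed. The m6A sequencing is not used here.

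The filter kept barcodes with 500 or more UMIs, 200 or more genes and up to 50% mitochondrial UMIs, and barcodes of wild type replicate 2 also deposited for wild type replicate 1 were left out. The wild type matrices total 10208946 and 61688164 UMIs and the Gulo-/- matrices 10073836 and 88925323, each in replicate order. Counts were summed per library and population and scaled to CPM. Ratios carry 95% conditional binomial intervals and levels Poisson intervals, and a count of 0 is bounded by 3 counts. Named profile genes were the 15 with the highest ratio to other cells at 50 CPM or more in wild type replicate 2, the only library with enough gated cells, with markers, gate genes and list members besides. The 22 gene lists, the members and the tests were chosen with earlier results of these data known. Proximal tubule cells were compared with edgeR 4.0.16 (TMM, filterByExpr, quasi-likelihood, Benjamini-Hochberg) and DESeq2 1.42.0 in R 4.3.3, after a check on simulated data. The planned edgeR fits within gated cells needed 5 cells in 3 libraries and were not run in the main setting. Whether libraries are separate animals is not in the labels, and p-values may then reflect technical spread alone. Alternatives were other gates, filters, scalings, blocks and left-out libraries.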

Additional observations from a re-analysis of the deposited data

How the results depend on the processing

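The difference in share of gated cells between genotypes was negative in every setting with all 4 libraries, from -7.38 (gate at 3 UMIs) to -0.298 percentage points (members with 3 or more UMIs of non-proximal markers left out, which keeps 45 cells of wild type replicate 2). Leaving out each library in turn gave -10.3 to 0.0907, and without wild type replicate 2 the sign reversed. That same exclusion of cells with non-proximal UMIs moved the genes at least 2-fold higher and lower than Slc5a2-positive cells from 553 and 344 to 996 and 1198, and with so few cells the levels are less precise. The ratios of 10 followed genes kept their direction in all 70 values, and 33 left the counting interval. Leaving shared barcodes out of both wild type libraries could not move these ratios, as wild type replicate 2 already lacked those barcodes. The Malat1 ratio of Slc7a13-led to Slc22a30-led cells was 0.187 with a gate at 10 UMIs (18 and 15 cells) against 0.0737.

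In proximal tubule cells edgeR called 0 genes with TMM or RLE factors and with sex as a block. It called 1563 of 18030 genes without the filter on low counts, and DESeq2 called 630 of 12173. Without that filter Slc7a13, Slc22a30, Atp11a, Slc22a7 and Acy3 were called. The cause was not tested. With the replicate number as a block 479 genes were called, Slc22a7 among them (adjusted p = 0.0222, edgeR), but the numbers only name the samples: same-numbered libraries deviated from their genotype means with r = 0.265 in 2 pairs. Leaving out libraries in turn gave log2 changes of -4.03 to 4.37 for Slc7a13, -4.54 to 0.86 for Slc22a30 and -2.95 to 0.83 for Atp11a, each positive only without wild type replicate 2. Lone libraries in those fits are assumed to vary like the others.

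The planned genotype fits within gated cells, with their population-by-genotype term, were not run in the main setting. Only 3 alternatives gave enough libraries for a fit, 3 each with 1 of them wild type. There edgeR called 39 of 2060 genes with the gate at 3 UMIs, 210 of 2101 with no limit on Slc7a12 and Serpina1f, and 18 of 511 with the gate at 0.1% of UMIs. The 6 gated cells outside wild type replicate 2 limit all genotype statements.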
